A study of Homo sapiens with 2 samples.

Results

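The IL-6 family is described here through the JUNB peaks that lie near its genes: the 5 ligand genes IL6, IL11, LIF, OSM and CLCF1 and the 5 receptor genes IL6R, IL6ST, LIFR, OSMR and IL11RA. These 10 genes were chosen by name from 19974 protein-coding genes. All peaks whose summit lay within 50 kb of a gene's RefSeq GRCh38 span were taken, which gave 42 of the 32550 peaks of the untreated library and 31 of the 25739 peaks of the etoposide library on chromosomes 1 to 22 and X. Joined where they overlapped, they made 50 of 41170 regions. LIF and OSM are neighbours on chromosome 22, and a peak within reach of both was listed once and credited to both.

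JUNB pairs with FOS-family proteins to form AP-1, and its sites on chromatin were mapped by CUT&RUN, in which an antibody guides a nuclease to the protein on chromatin and the released DNA is sequenced. The cells were IMR-90, which are human lung fibroblasts. One group, 1 library, had no treatment. The other group, also 1 library, was treated with etoposide (ETO), a topoisomerase II poison that breaks DNA and is widely used to make fibroblasts senescent. The same JUNB antibody was used in both groups, and the labels used here give no dose, no duration and no measure of senescence. With 1 library per condition the treatment could not be tested against replicates, so every difference below describes these libraries only, and intervals cover counting error only.

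Most ligands of this family signal through the shared receptor chain gp130, the product of IL6ST, joined to a partner chain that sets which ligand is recognised. IL6R binds IL-6, IL11RA binds IL-11, LIFR binds LIF, and OSMR binds oncostatin M. Engaged receptors activate JAK kinases and STAT3. IL-6 is among the best known secreted factors of senescent fibroblasts, and its promoter carries classical sites for NF-kB and for C/EBP proteins (the NF-IL6 site), with AP-1 as a further known input.

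RefSeq promoter windows (GRCh38, patch 14) were found for 7 of the 10 genes. The 250 bases before the annotated start are shown for IL6 and IL11, because those, of the ligand genes with a window, have a peak at the start. LIF, OSM and CLCF1 were not matched. Capitals mark the NF-IL6 letters TTGCNCAA and the NF-kB letters GGANTTTCC in IL6, and the AP-1 letters TGANTCA in IL11.
IL6, chr7:22726950-22727199, plus strand: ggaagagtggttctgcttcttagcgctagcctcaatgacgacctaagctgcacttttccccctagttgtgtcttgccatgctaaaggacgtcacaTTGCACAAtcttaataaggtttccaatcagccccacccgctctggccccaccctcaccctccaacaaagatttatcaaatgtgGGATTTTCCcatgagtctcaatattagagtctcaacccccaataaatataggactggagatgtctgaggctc
IL11, chr19:55370464-55370713, minus strand: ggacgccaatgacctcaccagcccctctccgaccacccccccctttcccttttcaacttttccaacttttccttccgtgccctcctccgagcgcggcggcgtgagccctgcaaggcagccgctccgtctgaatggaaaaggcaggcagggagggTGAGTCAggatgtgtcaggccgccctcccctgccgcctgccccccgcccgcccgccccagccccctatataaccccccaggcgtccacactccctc

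The windows were searched on both strands, from 250 bases before to 50 after each start, for TGANTCA (AP-1), TGACGTCA (the cAMP response element, CRE), GGANTTTCC and TTGCNCAA, where N is any base. Of 34789 windows of this length over all genes, 7.69% held TGANTCA, 1.84% TGACGTCA, 1.65% GGANTTTCC and 2.62% TTGCNCAA. No matches overlapped each other in the members' windows, and none of them was TGACGTCA. In IL6 the NF-IL6 letters began at position -155 from the start and the NF-kB letters at -72. In IL11 the AP-1 letters began at -96. Among the receptors, IL6R and OSMR held AP-1 letters just after the start, at +38 and +4, shown here with 10 bases on each side or up to the window's end for comparison with IL11.
IL11: gcagggagggTGAGTCAggatgtgtca
IL6R: tccgccgctcTGAGTCAtgtgcg
OSMR: gccccgcagcTGATTCAtagccccggc
These letters are descriptions of the windows. The peaks' own sequences were not analysed here.

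JUNB peaks were found near 9 of the 10 genes in the untreated library and near the same 9 in the etoposide library, with IL11RA the exception in both. Among protein-coding genes as a whole, 72.0% had at least 1 summit of the untreated list and 62.6% at least 1 of the etoposide list within the same distance, and 23.9% had neither. A shared region, one with overlapping peaks in both lists, lay near 8 members (all but IL11 and IL11RA), against 51.1% of all genes. Untreated-only regions lay near 9 members (59.7% of all genes) and etoposide-only regions near 4, IL11, LIF, IL6ST and LIFR (36.2%). Of the 50 regions, 21 were shared, 21 were in the untreated list only and 8 in the etoposide list only, or 42.0% shared against 39.3% of all regions. Where at least 50% of both peaks had to overlap, the counts were 14 shared, 28 untreated only and 17 etoposide only. That rule divides some regions into more than 1, and the share of all regions under it is not given here. The 5 ligand genes had 19 of the 50 regions (7 shared, 9 untreated only, 3 etoposide only) and the 5 receptor genes had 31 (14, 12 and 5).

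**Figure D1:**
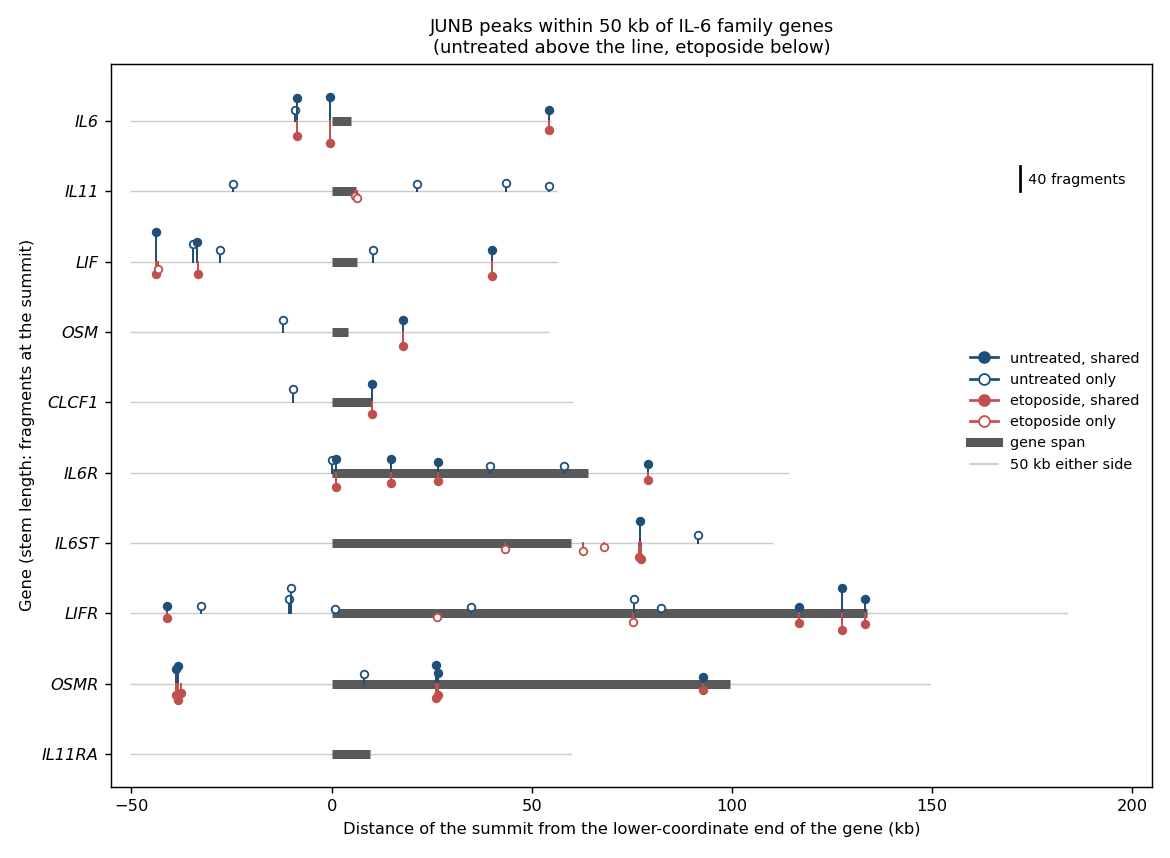
Each row is a gene, with its span as a thick bar and 50 kb on either side as a thin line. The x axis is the distance of each summit from the lower-coordinate end of the gene in kb, stems above the line are untreated peaks and stems below are etoposide peaks, stem length is the number of fragments at the summit, and open circles are peaks without a counterpart. IL6 and OSMR show mostly filled circles, IL11 shows open circles only, and IL11RA has none.

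For untreated peaks sharing was close to that of the whole list. For etoposide peaks it was higher, with an interval that held the whole-list share. In the untreated library 21 of 42 member peaks had an etoposide counterpart, 50% (95% Wilson interval 35.5% to 64.5%), against 51.0% of the whole list. In the etoposide library 23 of 31 had an untreated counterpart, 74.2% (56.8% to 86.3%), against 64.8%. These intervals take peaks as independent, though neighbouring peaks are not, and the 23 etoposide peaks fell in 21 shared regions. The ratio of etoposide to untreated peaks near members was 0.738, and it was 0.791 for the whole lists. The exact binomial interval of the member ratio, 0.449 to 1.20, takes the counts as independent. Shared regions enter both counts, so it does not give the error of this ratio. Which library had more member peaks depended on the length of the lists: among the 10000 strongest peaks of each list, 13 untreated and 16 etoposide peaks lay near members.

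The deposited fold and p of a peak fix the number of fragments stacked at its summit. That number had a median of 18 for untreated member peaks (6 to 47) and of 17 for etoposide member peaks (6 to 35), where the medians of the whole lists were 15 and 13. Peaks without a counterpart were the lower ones, with medians of 13.0 and 10.5 fragments against 22 and 19 for shared member peaks. Each list was also cut by -log10 q into 10 rank classes of equal size. In the untreated list 95.7% of the strongest class was shared and 21.0% of the weakest. Member peaks had median ranks 43.7% (untreated) and 37.0% (etoposide) of the way down their lists. The whole-list shares given above are therefore not matched for strength.

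IL6 encodes interleukin-6. It had a peak just upstream of the gene in each library, and this was the strongest etoposide peak near any member. The untreated peak (chromosome 7, 22726623 to 22727283) had 38 fragments at its summit (exact Poisson interval 26.9 to 52.2), and the etoposide peak (22726429 to 22727158) had 35 (24.4 to 48.7). The summits lay 478 and 506 bp before the IL6 start, inside the span of the antisense gene IL6-AS1. Both peaks covered the NF-IL6 and NF-kB letters printed above, and the whole window of 300 bases lay within the untreated peak and 209 bases of it within the etoposide peak. Those letters were 326 and 410 bp from the untreated summit and 354 and 438 bp from the etoposide summit.

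A further shared region lay 8.74 kb before IL6, with 36 fragments in the untreated library (25.2 to 49.8) and 23 in the etoposide library (14.6 to 34.5). Beside it was a weaker peak of the untreated list only, 9.10 kb before the gene, with 17 fragments. The third shared region near IL6 was at the edge of the 50 kb window, 49.4 kb beyond the gene, with 17 and 15 fragments, and its nearest protein-coding gene was TOMM7, 31596 bp from the untreated summit. Genes were set in 4 length classes of equal size, since longer spans catch more peaks. At least 3 shared regions, as at IL6, were found near 13.0% of all protein-coding genes and near 4.12% of the shortest class (51 to 8596 bp), which holds IL6.

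IL11, the ligand of IL11RA and a cytokine that fibroblasts make, was the only member with peaks in both lists and no shared region, which 7.48% of all genes had. The etoposide list held a pair of peaks at its start, on chromosome 19 at 55370263 to 55370451 and at 55370605 to 55370793. Their summits lay 144 bp after and 215 bp before the annotated start, with 8 fragments (3.45 to 15.8) and 11 fragments (5.49 to 19.7). The untreated list held no peak within 15.1 kb of the gene. The AP-1 letters of the IL11 promoter fell in the 153 bases between the etoposide peaks, 102 bp from the one and 46 bp from the other.

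These IL11 peaks were weak. They ranked 24220 and 15528 of 25739, and of etoposide peaks in the same rank classes 39.1% and 53.9% were shared. Within 1 kb of an annotated start, 17.5% of genes had an untreated summit and 6.61% an etoposide summit, and 3 and 2 of the 7 members with a known start did. An etoposide summit without an untreated summit within 1 kb of an annotated start was found at 230 of 15812 protein-coding genes, 1.45%, and the reverse at 12.3%. IL11 was among the former and IL6R and LIFR among the latter, IL6 had summits of both lists there, and IL6ST, OSMR and IL11RA had none. At IL6R the nearest etoposide summit, of a shared peak with 22 fragments, lay just past this distance, at 1071 bp. In the untreated library the 4 peaks within 50 kb of IL11 had 12, 12, 13 and 8 fragments, and 3 of them lay nearest to other genes at close range: 230 bp from KMT5C, 333 bp from RPL28 and 243 bp from UBE2S.

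**Figure D2:**
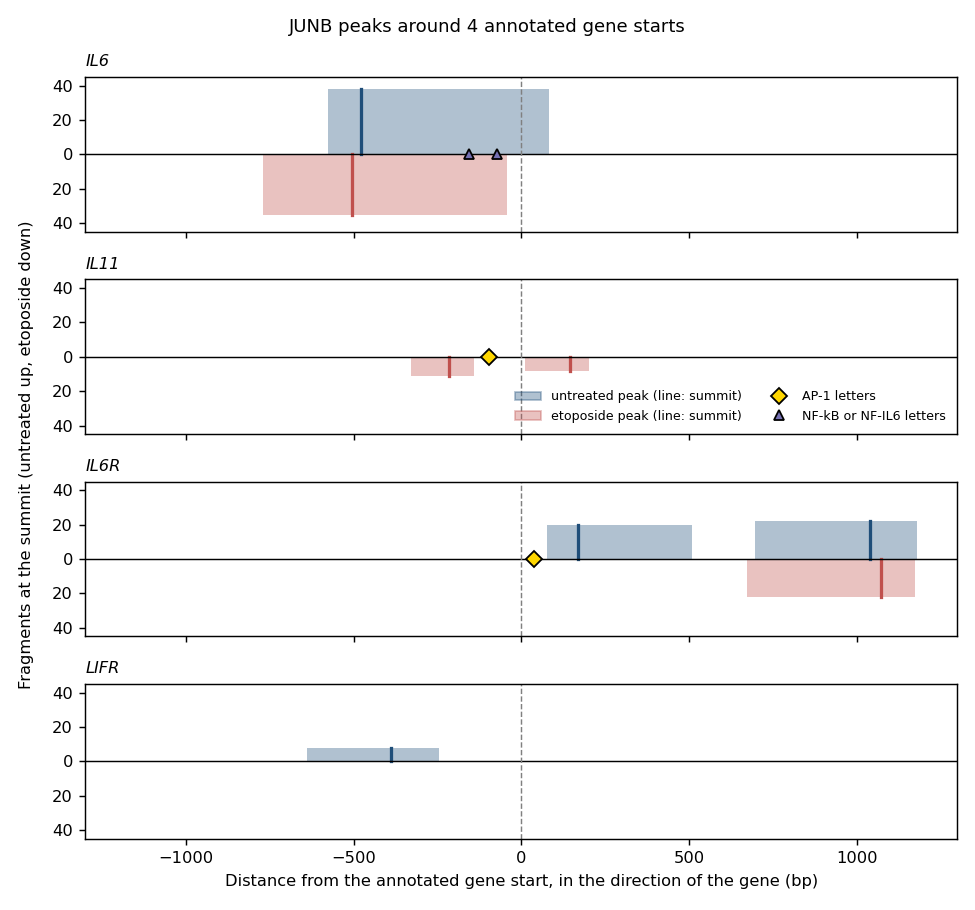
The x axis is the distance in bp from the annotated start in the direction of the gene, for IL6, IL11, IL6R and the lower-coordinate of the annotated LIFR starts. The y axis is the number of fragments at the summit, untreated upward and etoposide downward. Boxes span the listed peaks, lines mark summits, diamonds AP-1 letters and triangles NF-kB or NF-IL6 letters. IL6 has a peak in both lists, IL11 a pair of low etoposide peaks on either side of the AP-1 letters, and IL6R and LIFR untreated peaks near the start. IL6R also has a peak in both lists with summits 1040 and 1071 bp after the start.

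LIF, the ligand of LIFR, had 6 untreated and 4 etoposide peaks in its window, of which 3 regions were shared. The nearest was a peak of the untreated list only, 4.06 kb beyond the higher-coordinate end of LIF on chromosome 22 (30250689 to 30250910), with 18 fragments (10.7 to 28.4). It ranked 10750 of 32550, in a rank class of which 57.6% was shared. No etoposide peak lay within 33.5 kb of LIF.

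The strongest peak in the LIF window was distant from the gene, 43.8 kb away inside HORMAD2. It had 47 fragments in the untreated library (34.5 to 62.5) and 19 in the etoposide library (11.4 to 29.7). The untreated peak was 938 bp wide, and the etoposide list had a second, weaker peak of 12 fragments 447 bp from the first. Around it, inside or near HORMAD2, were a shared region with 30 and 19 fragments and untreated-only peaks with 27 and 18 fragments.

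OSM, which encodes oncostatin M and is mainly a product of leukocytes, had no peak nearer than 12.0 kb in the untreated library or 13.7 kb in the etoposide library. The first of these was the untreated-only peak near LIF. The other was a shared region 13.7 kb from OSM and 33.8 kb from LIF, at 30280364 to 30280639 in the untreated list, with 18 and 22 fragments. CASTOR1 was its nearest protein-coding gene, 4569 bp from the untreated summit. This was the strongest etoposide peak on this stretch, ranking 1941.

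CLCF1, which encodes a cytokine that acts through the CNTF receptor, had a shared peak 170 bp beyond its higher-coordinate end in the untreated list (chromosome 11, 67373801 to 67374481) and 126 bp beyond it in the etoposide list. The untreated peak had 29 fragments (19.4 to 41.6) and the etoposide peak 19 (11.4 to 29.7). A weaker untreated-only peak of 21 fragments lay 9.64 kb from the other end, 933 bp from POLD4. CLCF1 was thus the other ligand gene, besides IL6, with a shared peak within 1 kb of its span.

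Among the receptors, IL6R, the chain that binds IL-6, had all but 1 of its 7 regions inside the gene. The shared peak with summits 1040 and 1071 bp after the start had 22 fragments in each library. Deeper in the gene, shared peaks at 154419867 to 154420507 and 154431447 to 154432193 had 22 and 16 fragments in the untreated library and 17 and 13 in the etoposide library. The shared region outside IL6R lay 14.9 kb beyond it, inside SHE, with 13 and 11 fragments. The peak nearest the start was in the untreated list only (chromosome 1, 154405418 to 154405853), with its summit 170 bp after the start and 20 fragments (12.2 to 30.9). It began 32 bp beyond the AP-1 letters printed above, which lay outside any listed peak. The other untreated-only peaks of IL6R were weaker, with 10 and 11 fragments. A count of 4 or more shared regions, as at IL6R, was found for 6.5% of all genes and 3.54% of genes in its length class.

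IL6ST encodes gp130, the chain shared by most receptors of the family. Its main site was intergenic, 17.3 kb before the start (chromosome 5, 56011716 to 56012487), with 35 fragments in the untreated library (24.4 to 48.7). In the etoposide library the same region held 2 summits 474 bp apart, with 22 and 25 fragments. IL6ST also had 3 of the 8 etoposide-only regions of the family. One lay inside the gene with 10 fragments, and the others lay 2.82 and 8.28 kb before the start, in the divergent transcript IL6ST-DT, with 13 and 6 fragments. These ranked between 14028 and 25082 of 25739, in rank classes of which 56.1% and 39.1% were shared. At least 3 etoposide-only regions were found near 4.43% of all genes and 2.20% of genes in the same length class. The untreated list had 1 peak of its own here, 31.8 kb before the start with 12 fragments.

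LIFR, the receptor chain for LIF that also serves oncostatin M, had the most regions of any member: 13, of which 4 were shared, 7 untreated only and 2 etoposide only. It is also the longest gene of the family (134 kb). The shared peaks lay mostly in the higher-coordinate part of the gene, which also lies within LIFR-AS1. At 38601723 to 38602232 the untreated library had 39 fragments (27.7 to 53.3) and the etoposide library 26 (17.0 to 38.1). At 38607401 to 38608253 they had 22 and 17, and near 38591502 they had 10 and 15. The last shared region lay 41.2 kb beyond the other end of LIFR, inside EGFLAM, with 11 and 8 fragments. Weaker peaks were in the untreated list only at summits 38442105, 38475544 and 38509561, with 12, 6 and 10 fragments, and in the etoposide list only at 38501014, with 6.

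The strongest untreated-only peak near any member lay 10.2 kb beyond the lower-coordinate end of LIFR, inside EGFLAM (chromosome 5, 38464376 to 38464649). It had 39 fragments (27.7 to 53.3) and ranked 2310, in the rank class of which 95.7% was shared. Of the 7 untreated member peaks in that class, it was the only one without a counterpart. A second untreated-only peak of 23 fragments lay 372 bp from it. At the annotated LIFR start at 38556646 an untreated-only peak had 8 fragments, with its summit at -390 from that start, and reached 4 bases into the promoter window. Inside the gene, each list had a peak next to one of the other list without overlapping it: 22 fragments in the untreated library with its summit at 38550255, and 14 in the etoposide library with its summit at 38549927. At least 7 untreated-only regions were found near 1.17% of all genes and 4.41% of the longest length class.

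OSMR, the oncostatin M receptor chain, had the highest count of shared regions in the family, 5 of its 6. Inside the gene, a double peak 26140 and 26586 bp after the start had 29 and 17 fragments in the untreated library and 23 and 18 in the etoposide library. A second double peak lay 38.9 and 38.3 kb before the start in the divergent transcript OSMR-DT, with 23 and 27 fragments in the untreated library and 18 and 25 in the etoposide library, which also had another summit there, at 38808332, with 15. The last shared region, with 11 and 10 fragments, was where OSMR overlaps RICTOR. The region found in the untreated list only lay 8.08 kb after the start with 15 fragments, and no summit of either list lay within 1 kb of the start itself. At least 5 shared regions were found near 3.49% of all genes and 12.1% of the longest length class.

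IL11RA, the receptor chain for IL-11, had no peak in its window. The nearest summits were 326 kb away in both libraries, a distance matched or exceeded by 735 of 19974 protein-coding genes, 3.68%. This holds for the lists used here, which may not be whole.

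**Figure D3:**
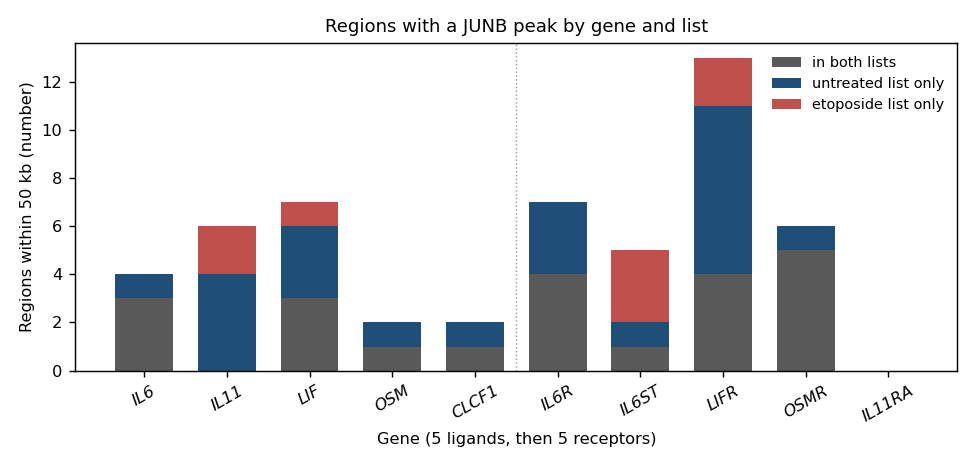
Stacked bars give the number of regions within 50 kb of each gene (y axis) that were in both lists, in the untreated list only or in the etoposide list only, for the 5 ligand genes and then the 5 receptor genes (x axis). LIFR has 13 regions, IL11 has 6 with none shared, and IL11RA has none; LIF and OSM have 2 regions in common.

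Fragments at shared summits were then compared. The median ratio of etoposide to untreated fragments over all 16610 shared pairs was 0.778, and each member pair was divided by it. The 21 member pairs had a median adjusted ratio of 1.02. Of these pairs 1 was below 1/1.5 and 2 were above 1.5, where 11.0% and 12.5% of all pairs were. The lower pair was the region in HORMAD2 near LIF, at 0.520 (exact binomial interval 0.288 to 0.903), which 2.57% of all pairs fell under. Of the 21 intervals only this 1 left out a ratio of 1, and they are not adjusted for the number of pairs. Its untreated peak, with 47 fragments, was also the highest of all member peaks. The pairs above 1.5 were the region between OSM and CASTOR1, at 1.57 (0.805 to 3.11), and the peak near 38591502 in LIFR, at 1.93 (0.811 to 4.80). The peak upstream of IL6 had a ratio of 1.18 (0.726 to 1.93) and that 8.74 kb away 0.821 (0.465 to 1.42), so neither was distinguishable from the typical pair at this depth. Counterpart summits lay between 2 and 116 bp apart, with a median of 33 bp against 41 bp for all pairs.

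**Figure D4:**
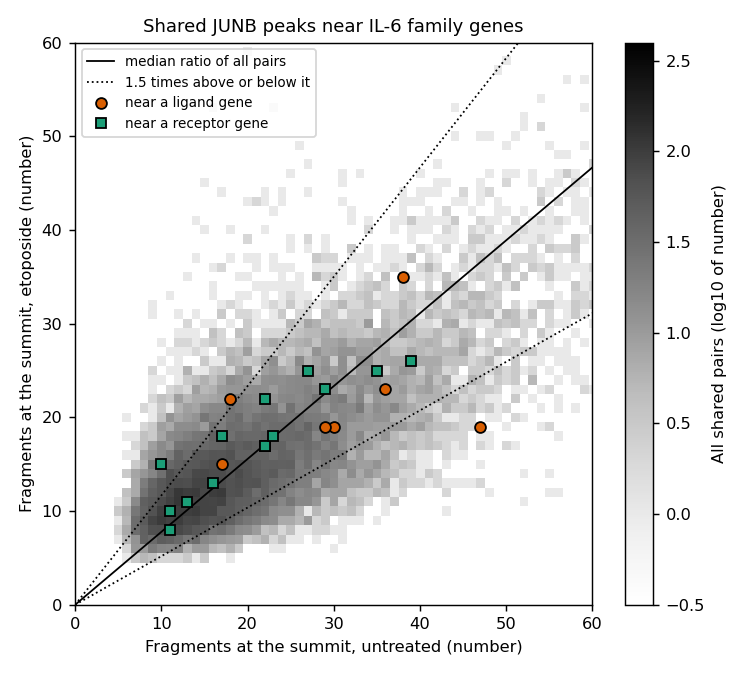
Fragments at the summit in the untreated library (x axis) and the etoposide library (y axis) for the 21 shared member pairs, circles near ligand genes and squares near receptor genes, over all shared pairs with up to 60 fragments in grey. The solid line is the median ratio of all pairs (0.778) and dotted lines lie 1.5 times above and below it. Most members follow the line, and the circle at 47 and 19 fragments is the region in HORMAD2; squares at 22 and 17 fragments stand for an IL6R and a LIFR peak together.

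The wider pathway was described by lists of genes, with the same 50 kb window. Of 9 other ligands and receptors of the family, 7 had an untreated and 5 an etoposide peak, beside 72.0% and 62.6% of all protein-coding genes. These shares are the background for each list that follows. IL27, a cytokine subunit, and its receptor gene IL27RA had a peak in the untreated list alone, and CTF1 and CNTFR had none. The share of all genes with a peak in the untreated list alone is not given here. No excess can therefore be read from the genes so named, in this list or those below. CNTF, encoding ciliary neurotrophic factor, had the strongest shared site of this list, 2.28 kb away with 38 untreated and 43 etoposide fragments.

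In the shared signal path, the kinases, STATs and adaptors, untreated peaks lay near 10 of 10 genes and etoposide peaks near 9, the exception being TYK2, a JAK-family kinase. A shared region lay near 7 of them (51.1% of all genes). STAT5A and STAT5B, which are neighbours, had peaks in each list but none in common, as did 7.48% of all genes. The strongest untreated peak was inside JAK1, with 44 fragments. STAT3, the main transcription factor of the pathway, had 9 untreated and 3 etoposide peaks, and its strongest etoposide peak (17 fragments) was shared and lay 0.461 kb from the gene. The STAT3 peaks made 2 shared, 7 untreated-only and 1 etoposide-only regions. At least 7 untreated-only regions were found near 1.17% of all genes and 4.41% of the longest length class, which holds STAT3.

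Of 9 genes for feedback and receptor shedding, 9 had an untreated and 7 an etoposide peak (72.0% and 62.6% of all genes). CISH and SOCS1, feedback inhibitors of cytokine receptors, had a peak in the untreated list alone. SOCS2 held the strongest site of all the pathway lists, inside the gene, with 66 fragments in the untreated library (rank 71) and 52 in the etoposide library (rank 73). SOCS3, the inhibitor that acts on gp130, had 7 peaks in each list, which made 3 shared, 4 untreated-only and 4 etoposide-only regions. At least 3 shared regions were found near 13.0% of all genes. At least 4 untreated-only regions were found near 7.89%, and at least 3 etoposide-only regions near 4.43%. ADAM17, the protease that releases IL6R from the cell surface, had a shared peak 48.1 kb away with 51 and 46 fragments. Of 4 regulators of IL6, NFKB1 and CEBPB had peaks in both lists, RELA in the untreated list alone and CEBPD in neither.

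Peak lists hold no RNA, so the cell type could not be checked by expression. For marker genes, a peak within 50 kb was found in the untreated and etoposide lists for 9 and 9 of 9 fibroblast genes, 6 and 5 of 6 epithelial genes, and 3 and 1 of 6 leukocyte genes. With 72.0% and 62.6% of all genes having such a peak, these counts are no check of the cell type. At the edge of the 50 kb rule, the IL6 region at 49.4 kb was the last inside, and the first outside was an untreated peak of 18 fragments 50.2 kb from OSM, which the LIF window holds.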

How the data were processed

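JUNB CUT&RUN was measured in 1 untreated and 1 etoposide-treated IMR-90 library, grouped by the treatment label. Per the submitters' processing notes the tools were Bowtie2 and MACS2, with hg38 and mm10 named without a role. Versions, settings and any control are not given in the sources used here. The lists hold chromosome 22 and GRCh38 contig names and were read as GRCh38, counted from 1. The deposited narrowPeak lists, called per library, give a score, a fold ratio of summit signal over local background, -log10 p and -log10 q, and the summit position. These values are the authors' own and served to describe and rank peaks within their list.

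Fragments at the summit, k, were the whole number for which (k + 1)/(b + 1) gave the deposited fold ratio and the Poisson tail above k at background b the deposited -log10 p, within 0.001. This held for 100% of peaks, with a second solution for 0.24% of untreated and 0.12% of etoposide peaks and for 0 member peaks, and was tested on simulated data. The lowest backgrounds, 0.482 and 0.377, and smallest widths, 202 and 189 bp, put etoposide at 0.836 times the untreated depth, on the assumption that they reflect mean coverage and fragment length.

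Peaks with at least 1 bp in common were shared. Gene spans came from RefSeq GRCh38, patch 14, and starts from its promoter table, which gave windows for 7 members. By the rule for named genes, every member and its peaks were described, other pathway genes were counted by list, and those with a peak in 1 library only were named. The members, gene lists and rules were chosen with earlier results of these data known, and the NF-kB and NF-IL6 letters were added after peaks were seen. The planned motif search in peaks was not run, since no genome sequence was used here (only promoter windows were searched). Python 3.11.15, numpy 2.4.6, scipy 1.17.1 and pandas 2.3.3 were used.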

Additional observations from a re-analysis of the deposited data

How the results depend on the processing

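No paired analysis was possible because each condition had 1 library, and no library could be left out. The numbers of members with a peak, 9 and 9, stayed within 1.5 times under every alternative run for them (windows of 10 and 100 kb, -log10 q of at least 5, the 10000 strongest peaks). Within 10 kb there were 23 untreated and 19 etoposide peaks, with 12 shared and 11 untreated-only regions. Within 100 kb there were 49 etoposide peaks and 32 shared regions. Among the 10000 strongest peaks of each list there were 13 untreated and 16 etoposide peaks, with 11 shared, 2 untreated-only and 4 etoposide-only regions. The untreated-only regions of the full lists were thus mostly of lower rank. Those of the etoposide list were all of lower rank, the best at 12070. The 4 etoposide-only regions counted here were shared in the full lists, with an untreated peak that this cut left out. Etoposide-only regions numbered 5 at a -log10 q of at least 5, and 17 when overlap of at least 50% of both peaks was required, with 14 shared and 28 untreated only. Shares of all regions under these alternatives are not given here, so the counts describe the members only. For shared pairs, scaling by lowest backgrounds and smallest widths left 1 pair higher and 1 lower, where 9.22% and 16.1% of all pairs were. A fold of 2 left 0 higher and 0 lower, where 3.09% and 1.87% of all pairs were. Many single-library peaks had 6 to 13 fragments, though the strongest had 39, and a missing counterpart means only that no peak was listed there. Whether depth accounts for the missing counterparts was not tested.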

Other observations

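Both genes of the family with no peak in either list that encode ligand-specific receptor chains, IL11RA and CNTFR, lie in the same interval of chromosome 9. From the summit at 34325795 to that at 34992403, 667 kb, neither list held a summit, and 20 protein-coding genes lay wholly inside, among them the chemokine genes CCL19, CCL21 and CCL27. Of 1589 intervals of at least 300 kb without a summit, 29 held at least as many genes, and 20 of those were also at least as long. The flanking summits were nearly the same in both libraries, with 13 and 25 fragments untreated and 13 and 10 etoposide. The lists used here may not be whole, and what leaves this interval free of listed summits was not tested.

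Promoter windows differed in AP-1 letters by the list that reached them. TGANTCA was found in 31.3% of 732 windows overlapped by peaks of both lists (95% Wilson interval 28.0% to 34.7%). It was in 19.3% of 249 windows overlapped by etoposide peaks alone (14.9% to 24.6%), the class of IL11, and in 9.21% of 2345 overlapped by untreated peaks alone (8.11% to 10.4%). Windows with no peak held it in 6.94%. Windows of neighbouring starts can overlap, so they are not independent, and the median GC content was 58.2%, 59.7%, 63.3% and 58.0% in the same order. The classes were not matched for peak strength, with which sharing rose in both whole lists. Of the other members, IL6 was in the class of both lists and a LIFR start in that of untreated peaks alone, both without TGANTCA in the window. The IL6 peaks and their summits reach upstream of the window, and that part was not searched. The windows of IL6R and OSMR held it but had no peak. In IL11 the letters lay outside the etoposide peaks.

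Summits near the family often came in close pairs. In the untreated list 12 of 42 member peaks (28.6%) had another summit within 1 kb, against 17.7% of the whole list, and in the etoposide list 11 of 31 (35.5%) did, against 11.6%. They were at IL6, IL6R, LIF, LIFR and OSMR in the untreated list and at IL11, LIF, IL6ST and OSMR in the etoposide list. This was noticed after the peaks were seen, and members of a pair are not independent.

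Between LIFR and OSMR, 238 kb apart on chromosome 5, there were 8 untreated peaks, 7 of them shared, and 9 etoposide peaks, 8 of them shared. Of these, 2 untreated and 3 etoposide peaks are those in OSMR-DT described above.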
